A study of Mus musculus with 16 samples.

Results

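The genes described here are 10 negative regulators of T cell receptor signalling, Dgka, Dgkz, Cd5, Cd6, Csk, Ptpn22, Ptpn6, Ptpn2, Cblb and Ubash3a. They were chosen by name, with earlier results of these data known, and are 10 of the 54456 genes in the deposited count table. All 10 passed the filter on low counts and were among the 15675 genes tested. The RNA came from T cells of OT-I mice. These carry a transgenic receptor for a peptide of ovalbumin held by MHC class I, and their T cells are mostly of the CD8 kind. The 4 groups held 4 libraries each. Lymph node (LN) cells and visceral adipose tissue (VAT) cells came from mice kept for 8 weeks on a high-fat diet (HFD, 60% of kcal from fat) or on the standard diet (lean). The labels number the libraries of a group as biological replicates but name no animal, age, sex, batch or pooling. They call the cells freshly isolated in 1 place and describe a culture of 1 night before the sort in another, so the time between tissue and lysis is not known. Every group carries the OT-I receptor, so there is no group of T cells with a natural range of receptors. The second header line of the table also marks all 16 columns as Neg-OVA, a term that neither the table nor the labels explain. The title of the series speaks of visceral fat T cells in obesity and inflammatory arthritis, and the design sets tissue against tissue and diet against diet.

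When a T cell receptor binds its peptide, the kinase Lck phosphorylates the receptor chains, Zap70 is recruited, and the adaptor Lat then gathers the enzymes that make diacylglycerol and release calcium. The genes described here act against successive steps of this chain. Csk and the phosphatases Ptpn22, Ptpn6 and Ptpn2 hold Lck and its neighbours in check, Cd5 and Cd6 are surface receptors that recruit inhibitory proteins, Dgka and Dgkz are kinases that convert diacylglycerol to phosphatidic acid, and Cblb and Ubash3a act through ubiquitin and dephosphorylation.

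The libraries held 40212388 to 65957407 counts. Levels are given as CPM, a gene's counts relative to the library's total after scaling by edgeR's TMM method, and 3 counts in a library came to 0.04371 to 0.08035 CPM. The counts come from amplified cDNA without molecular identifiers as far as the labels say, so depth covers counting error only. Of 160 values of these genes (10 genes in 16 libraries), 3 were at 3 counts or fewer, all of them of Cd5 in VAT. 3 VAT libraries stood apart: of the genes whose median in the remaining libraries of the group was 10 CPM or more, the share at 3 counts or fewer was 11.4% in HFD VAT replicate 1, 11.5% in HFD VAT replicate 3 and 13.3% in lean VAT replicate 1, against 0.818% to 5.45% in the other 13. The tissue differences of each gene are given with and without them. Both CD8 chains were high in every library, in different proportions: Cd8a averaged 664.9 CPM in HFD LN and 2077 in HFD VAT (718 and 1840 in lean mice), and Cd8b1 averaged 2072 and 1228 CPM (2058 and 1368 in lean mice). Markers of several other cells differed by tissue. The summed level of the 10 B and plasma cell markers was 1602 to 2393 CPM in HFD LN and 1529 to 2743 in lean LN, against 169.1 to 359.8 in HFD VAT and 85.6 to 220.4 in lean VAT, most of it Ighm. The 8 macrophage and monocyte markers summed to 33.36 to 130.6 CPM in HFD VAT and 27.28 to 78.63 in lean VAT, against at most 2.414 in HFD LN and 6.088 in lean LN. On average most of the VAT sum was Cd68, at 60.89 and 38.82 CPM in HFD and lean VAT. C1qa was at 0 in every library, Adgre1 and Itgam had at most 1 count over any group, and Cd14 had 0 counts in VAT. Lyz2 was seen in 1 library of each VAT group, at 16.1 CPM on HFD and 17.77 in lean mice. Csf1r had 446 counts in HFD VAT, all in 1 library, and 3 in lean VAT, against 0 in HFD LN and 10 in lean LN. Fcgr1 had 319 counts in lean VAT and 1 in HFD VAT, against 7 in lean LN and 3 in HFD LN. The 6 dendritic cell markers summed to 59.84 to 110 CPM in HFD VAT and 35.08 to 82.46 in lean VAT, against at most 16.8 in HFD LN and 22.29 in lean LN, and in VAT were mostly Itgax and Xcr1. Flt3 averaged 0 CPM in HFD VAT and 0.4738 in lean VAT, against 3.623 in HFD LN and 0.5843 in lean LN. Zbtb46 averaged 0.7342 and 2.059 CPM in HFD and lean VAT, against 0.2074 and 5.525 in HFD and lean LN. Clec9a averaged at most 1.26 CPM and Siglech at most 0.04523 in any group, both in lean VAT. Cd40lg, a CD4 T cell marker, averaged 27.71 and 28.5 CPM in HFD and lean LN, against 0 and 3.654 in VAT. Cd4 averaged at most 1.2 CPM in any group. Pecam1, from the adipocyte and stroma list, averaged 159.3 and 113 CPM in HFD and lean LN, against 65.74 and 47.01 in VAT. The summed NK and innate lymphoid markers overlapped between tissues. Of these, Klrb1c was higher in VAT on average and Eomes lower. Whether any of these other cells were present, and their part in the tissue differences below, was not tested. In bulk libraries, fewer cells of a type and less RNA per cell cannot be told apart.

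The tissues differed by the test in 1 of these regulators on each diet, and the diets in 0. A gene is called when its Benjamini-Hochberg adjusted p, over all genes tested, is under 0.05 in edgeR's quasi-likelihood test. On HFD, 0 of the 10 rose in VAT and 1, Dgkz, fell, where 4.56% of all tested genes were called (2.68% higher, 1.88% lower). In lean mice 0 rose and 1, Dgka, fell, where 3.04% were called (2.12% higher, 0.919% lower). At an unadjusted p under 0.05, 3 were higher (Cblb, Ptpn2 and Ptpn22) and 1 lower (Dgkz) in VAT on HFD, and 2 were higher (Cblb and Ptpn22) and 4 lower (Cd6, Dgka, Dgkz and Ubash3a) in lean mice. Of all genes, 18.8% and 13.8% had such a p on HFD and in lean mice. DESeq2 called 2 rises and 1 fall on HFD, where it called 16.4% of all genes, and 0 rises and 3 falls in lean mice, where it called 10% of them. limma voom called 1 rise and 1 fall on HFD, where it called 6.44% of all genes, and 1 rise and 4 falls in lean mice, where it called 8.76%. The VAT and LN libraries did not overlap for 4 of the 10 on HFD (Ptpn2 and Ptpn22 higher, Cd5 and Dgkz lower), where 15.2% of all genes did not overlap (7.21% higher, 8.01% lower). In lean mice 6 of the 10 did not overlap (Cblb higher, and Cd5, Cd6, Dgka, Dgkz and Ubash3a lower), where 12.9% of all genes did not (7.24% higher, 5.7% lower). The median log2 difference of the 10, VAT minus LN, was -0.13 on HFD beside -0.10 for all genes, and -0.62 in lean mice beside -0.003 for all genes.

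**Figure D1:**
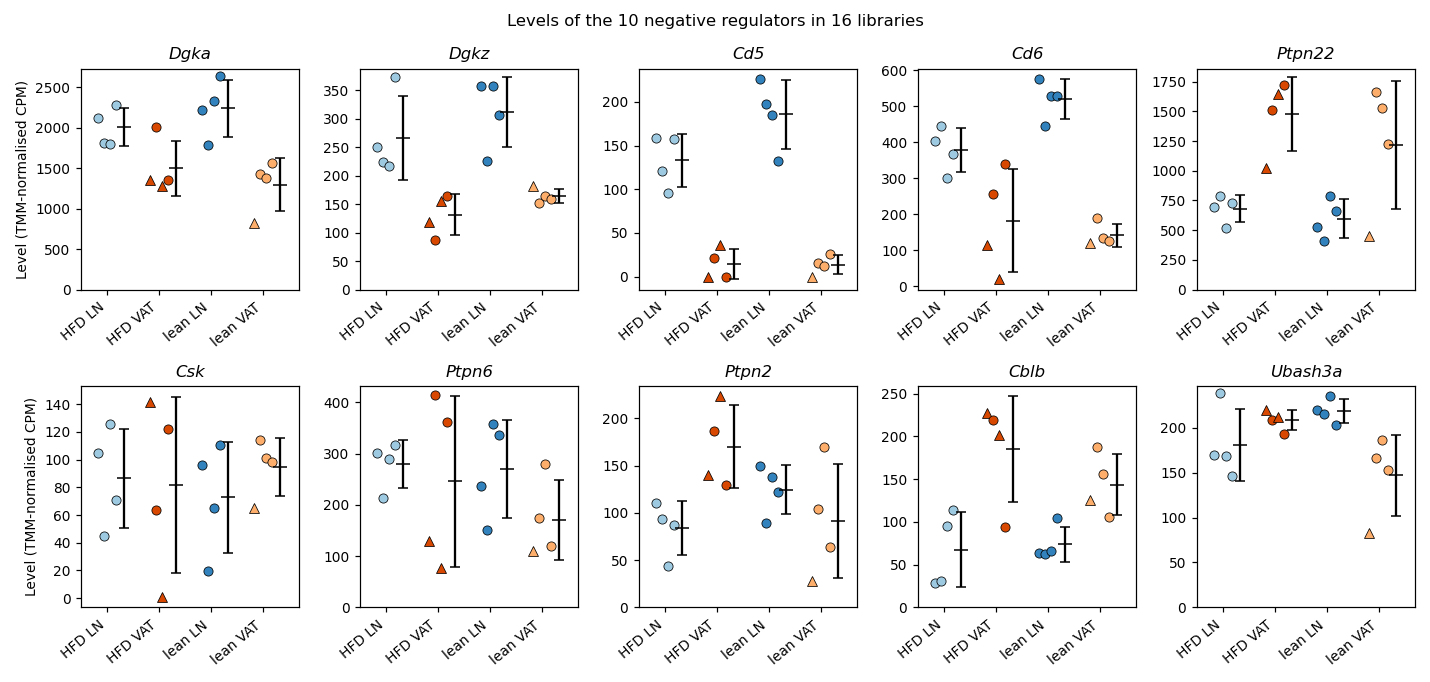
Levels of the 10 genes in TMM-normalised CPM (linear axis, a separate scale for each gene) in the 4 libraries of each group, as points from left to right by replicate number, with the mean and SD as black bars. Triangles are HFD VAT replicates 1 and 3 and lean VAT replicate 1, the libraries with the largest share of missing genes. Cd5 and Dgkz are lower in all VAT libraries than in all LN libraries on the same diet.

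Dgka and Dgkz encode diacylglycerol kinases alpha and zeta, which end the diacylglycerol signal that activates Ras and protein kinase C theta. Both had lower mean levels in VAT than in LN on both diets. By the test, Dgka fell in lean mice and Dgkz fell on HFD.

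Dgkz was at 250.3, 224.2, 216.1 and 373.3 CPM in HFD LN replicates 1 to 4. It was at 117.8, 86.4, 156.1 and 163.9 CPM in HFD VAT. All HFD VAT libraries lay below all HFD LN libraries, and HFD LN replicate 4 was the highest. The means were 131.1 ± 35.95 CPM in HFD VAT and 266 ± 73.04 CPM in HFD LN (SD, n = 4 each). The log2 difference was -1.02 ± 0.24 (SE; 2.03-fold lower in VAT; edgeR adjusted p = 0.0234). In lean mice Dgkz was at 357.2, 226.1, 356.9 and 306.3 CPM in LN and at 181.0, 152.6, 164.0 and 159.1 CPM in VAT, again with no overlap. The means there were 311.6 ± 61.82 and 164.2 ± 12.17 CPM (SD, n = 4), a log2 difference of -0.92 ± 0.24 (SE; 1.90-fold lower in VAT). Its edgeR adjusted p of 0.0513 missed the threshold, and was 0.0808 without the 3 VAT libraries (difference -1.01). It passed the threshold without HFD LN replicate 4 (0.0315), HFD VAT replicate 2 (0.0327) or lean LN replicate 2 (0.0357). The 2 tissue differences of Dgkz were not shown to differ from each other: the difference between the diet effects was -0.10 ± 0.33 on the log2 scale (edgeR adjusted p = 1.00). The call on HFD was lost without HFD LN replicate 4 (edgeR adjusted p = 0.0777), HFD VAT replicate 1 (0.0693) or HFD VAT replicate 2 (0.0621), and without the 3 VAT libraries that stood apart (log2 difference -1.10 ± 0.31, adjusted p = 0.0898). It was also lost with only the HFD groups in the fit (0.0894) and in limma voom (0.0641).

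Dgka was at 2217, 1786, 2324 and 2640 CPM in lean LN replicates 1 to 4. It was at 818.4, 1429, 1381 and 1563 CPM in lean VAT. All lean VAT libraries lay below all lean LN libraries, and lean VAT replicate 1 was the lowest. The means were 2242 ± 352.8 and 1298 ± 328.9 CPM (SD, n = 4), and the log2 difference, VAT minus LN, was -0.79 ± 0.20 (SE; 1.73-fold lower; edgeR adjusted p = 0.0498). This call sat at the threshold. It held in 6 of 25 alternatives. Among the fits that left out 1 library it held without HFD VAT replicate 2 (edgeR adjusted p = 0.0336) or lean LN replicate 2 (0.0448) and in no other. Without the 3 VAT libraries the difference was -0.66 with an adjusted p of 0.0630 (edgeR). On HFD Dgka was at 2120, 1816, 1801 and 2283 CPM in LN and at 1348, 2005, 1279 and 1359 CPM in VAT. HFD VAT replicate 2 lay inside the LN range and the other HFD VAT libraries below it. That difference was -0.42 ± 0.20 on the log2 scale (1.34-fold lower; edgeR adjusted p = 0.276), and -0.27 without the 3 VAT libraries (adjusted p = 0.470). The 2 tissue differences of Dgka were not shown to differ from each other. Its difference between the diet effects was 0.37 ± 0.28 on the log2 scale (edgeR adjusted p = 0.9998). In order of mean level the groups ran lean LN, HFD LN, HFD VAT and lean VAT for Dgka, and lean LN, HFD LN, lean VAT and HFD VAT for Dgkz. Neighbours in these orders that share a tissue were not called different.

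The 250 bases before the RefSeq start site of the diacylglycerol kinases are shown because these are the members called between tissues. Sequences are from RefSeq on mouse build GRCm38.p6, printed 5′ to 3′ on the strand of the gene, and 8 of the 10 genes were matched and searched. Where RefSeq lists several starts, the start nearest to that of the principal GENCODE transcript was taken. The counts are per gene, so which start was used in these cells is not known. Capitals mark a match to any of 8 short motifs.
Dgkz, chr2:91963564-91963813, minus strand: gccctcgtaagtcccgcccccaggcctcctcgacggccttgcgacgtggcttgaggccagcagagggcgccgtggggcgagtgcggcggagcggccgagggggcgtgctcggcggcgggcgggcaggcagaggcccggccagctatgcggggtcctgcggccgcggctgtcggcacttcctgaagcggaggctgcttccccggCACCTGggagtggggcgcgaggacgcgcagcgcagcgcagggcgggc
Dgka, chr10:128744077-128744326, minus strand: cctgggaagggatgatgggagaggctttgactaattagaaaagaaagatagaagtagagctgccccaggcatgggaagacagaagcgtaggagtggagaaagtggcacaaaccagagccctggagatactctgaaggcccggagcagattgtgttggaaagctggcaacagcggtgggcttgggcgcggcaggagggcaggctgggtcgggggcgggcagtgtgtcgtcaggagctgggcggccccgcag
The motifs, searched on both strands, were FOXO (TGTTTAC), ETS (CCGGAAG), RUNX (TGTGGTT), an E-box (CAGGTG), AP-1 (TGANTCA), IRF, NFAT (GGAAAA) and KLF (GGGTGTG). Dgkz had 1 match, the E-box read on the other strand as CACCTG, 47 to 42 bases before the start. The E-box was found in 17.2% of 32851 upstream windows of this length. Dgka had 0 matches. GC content was 77.6% in the Dgkz window and 60.0% in the Dgka window.

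Cd5 and Cd6 encode scavenger receptor family proteins of the T cell surface that bind inhibitory enzymes and adaptors in their tails, and they are neighbouring genes on chromosome 19. Both had lower mean levels in VAT on both diets. Neither passed edgeR's test. In HFD VAT the coefficient of variation was 123.1% for Cd5 and 78.7% for Cd6, the widest spread of the 10, with Csk next at 77.4%.

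Cd5 was at 158.5, 120.9, 96.0 and 157.8 CPM in HFD LN and at 226.6, 198.1, 184.9 and 132.7 CPM in lean LN. In HFD VAT it had 0 counts in replicate 1, 21.0 CPM in replicate 2, 36.1 CPM in replicate 3 and 2 counts in replicate 4. In lean VAT it had 0 counts in replicate 1 and 15.2, 12.6 and 26.1 CPM in replicates 2 to 4. Every VAT library lay below every LN library of the same diet. The means were 14.29 ± 17.59 CPM in HFD VAT against 133.3 ± 30.48 in HFD LN, and 13.48 ± 10.73 CPM in lean VAT against 185.6 ± 39.32 in lean LN (SD, n = 4). The log2 differences were -3.22 ± 1.76 on HFD (SE; 9.33-fold lower; edgeR adjusted p = 0.368) and -3.78 ± 1.80 in lean mice (13.8-fold lower; adjusted p = 0.381). limma voom called both, with a difference of -7.39 on HFD (adjusted p = 0.0207) and -3.78 in lean mice (0.0407), so its HFD value was over 1.5 times that of edgeR on the log2 scale. Without the 3 VAT libraries the differences were -3.68 and -3.40 (edgeR adjusted p = 0.218 and 0.191). On HFD that fit kept replicate 4, at 2 counts, and left out replicate 3, the highest.

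The upstream window of Cd5 is shown because Cd5 had the lowest VAT level relative to LN among the 10.
Cd5, chr19:10738975-10739224, minus strand: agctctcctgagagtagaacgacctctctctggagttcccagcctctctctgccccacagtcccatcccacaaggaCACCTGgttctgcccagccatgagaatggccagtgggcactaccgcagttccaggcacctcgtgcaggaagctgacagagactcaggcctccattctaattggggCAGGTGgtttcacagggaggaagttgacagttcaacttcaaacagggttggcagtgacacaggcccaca
It held 2 E-box matches, 174 to 169 bases (CACCTG) and 69 to 64 bases (CAGGTG) before the start. GC content was 56.8%. Ptpn6 had 1 E-box match in its window, which lies 5555 bases from the principal GENCODE start. Csk had 1 match to the KLF motif, found in 6.93% of all windows, and the windows of Cblb, Ptpn22, Ubash3a and Dgka had 0 matches to the 8 motifs.

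Cd6 was at 577.2, 444.6, 530.1 and 528.4 CPM in lean LN. It was at 119.1, 188.3, 132.3 and 126.0 CPM in lean VAT, with no overlap. The lean means were 520.1 ± 55.19 and 141.4 ± 31.74 CPM (SD, n = 4), a log2 difference of -1.88 ± 0.56 (SE; 3.68-fold lower in VAT; edgeR adjusted p = 0.108). On HFD it was at 403.7, 445.5, 299.8 and 367.1 CPM in LN and at 114.5, 255.6, 18.2 and 338.4 CPM in VAT. HFD VAT replicate 4 lay inside the LN range and replicate 3 was the lowest of all 16 libraries. The HFD difference was -1.06 ± 0.55 (2.09-fold lower; edgeR adjusted p = 0.334). Without the 3 VAT libraries the lean difference of Cd6 was -1.84 ± 0.20 with an edgeR adjusted p of 0.000729. The HFD difference without them was -0.37 ± 0.22 (adjusted p = 0.414), with 2 HFD VAT libraries left. Leaving out HFD VAT replicate 3 alone gave the lean difference an edgeR adjusted p of 0.00187, and no other single library did so.

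Csk phosphorylates the inhibitory tyrosine of Lck, and Ptpn22 is the phosphatase that binds Csk and removes the activating phosphates from Lck and Zap70. The mean level of Ptpn22 was higher in VAT than in LN on both diets but missed the threshold, and Csk was not called. Ptpn22 was at 696.5, 784.7, 516.0 and 729.3 CPM in HFD LN and at 1023, 1516, 1648 and 1722 CPM in HFD VAT. All HFD VAT libraries lay above all HFD LN libraries. The means were 681.6 ± 116.3 and 1477 ± 314.5 CPM (SD, n = 4), and the log2 difference was 1.12 ± 0.33 (SE; 2.17-fold higher in VAT; edgeR adjusted p = 0.0797). In lean mice it was at 523.7, 408.3, 787.0 and 658.0 CPM in LN and at 451.1, 1661, 1531 and 1225 CPM in VAT. Lean VAT replicate 1, which stood apart, lay inside the LN range and the other 3 lay above it. The lean difference was 1.03 ± 0.33 (2.05-fold higher; edgeR adjusted p = 0.142).

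Ptpn22 passed the threshold once lean VAT replicate 1 was left out: the edgeR adjusted p was then 0.00907 on HFD and 0.00685 in lean mice. Without all 3 VAT libraries the differences were 1.23 ± 0.24 on HFD (adjusted p = 0.0172) and 1.28 ± 0.22 in lean mice (adjusted p = 0.00928). DESeq2 called Ptpn22 on HFD (adjusted p = 0.0171) and limma voom called it on both diets (0.0352 on HFD and 0.00543 in lean mice). Its upstream window is shown as that of the phosphatase whose mean level was higher in VAT on both diets. With all libraries, edgeR called neither difference.
Ptpn22, chr3:103860027-103860276, plus strand: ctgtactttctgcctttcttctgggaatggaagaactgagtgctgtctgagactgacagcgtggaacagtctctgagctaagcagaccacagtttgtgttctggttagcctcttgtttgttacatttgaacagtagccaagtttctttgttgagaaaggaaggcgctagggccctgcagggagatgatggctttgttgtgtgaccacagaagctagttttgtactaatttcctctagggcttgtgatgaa
It had 0 motif matches and a GC content of 46.0%.

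Csk was at 104.4, 45.1, 125.7 and 70.9 CPM in HFD LN and at 141.5, 63.8, 0.616 and 122.0 CPM in HFD VAT, where replicate 3 had 23 counts. It was at 96.2, 19.8, 64.8 and 110.5 CPM in lean LN and at 64.8, 114.0, 101.3 and 98.0 CPM in lean VAT. The groups overlapped in all comparisons. The log2 differences, VAT minus LN, were -0.08 ± 0.90 on HFD and 0.38 ± 0.91 in lean mice (SE; edgeR adjusted p = 0.989 and 0.986). They were 0.08 ± 0.60 and 0.48 ± 0.52 without the 3 VAT libraries (adjusted p = 0.979 and 0.779). The SE of Csk exceeded the difference on both diets, so neither estimate could be told from 0 at this spread.

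Ptpn6, which encodes the phosphatase SHP-1, and Ptpn2, a phosphatase of Lck and of the JAK and STAT proteins, showed no call. Ptpn6 was at 300.3, 212.8, 289.7 and 317.6 CPM in HFD LN and at 130.2, 414.0, 76.2 and 362.3 CPM in HFD VAT. The HFD VAT libraries lay on both sides of the LN range, with replicates 1 and 3, which stood apart, below it. The log2 difference was -0.19 ± 0.47 (SE; edgeR adjusted p = 0.926), and without the 3 VAT libraries it was 0.46 ± 0.37 (adjusted p = 0.547). In lean mice Ptpn6 was at 236.4, 150.7, 357.0 and 335.7 CPM in LN and at 109.5, 174.3, 279.5 and 120.5 CPM in VAT, a difference of -0.66 ± 0.48 (adjusted p = 0.707), and -0.53 ± 0.34 without the 3 VAT libraries (adjusted p = 0.501).

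Ptpn2 was at 111.0, 93.8, 43.7 and 87.7 CPM in HFD LN and at 139.6, 186.6, 224.0 and 129.9 CPM in HFD VAT. All HFD VAT libraries were above all HFD LN libraries. The means were 84.03 ± 28.67 and 170 ± 43.71 CPM (SD, n = 4), a log2 difference of 1.02 ± 0.45 (SE; 2.02-fold higher in VAT; edgeR adjusted p = 0.237), and 0.90 ± 0.42 without the 3 VAT libraries (adjusted p = 0.309). In lean mice it was at 149.2, 89.4, 138.0 and 121.9 CPM in LN and at 27.8, 104.4, 169.6 and 64.3 CPM in VAT. The lean groups overlapped, lean VAT replicate 1 was the lowest, and the difference was -0.44 ± 0.45 (adjusted p = 0.871). It was -0.18 ± 0.38 without the 3 VAT libraries (edgeR adjusted p = 0.925). The order of the group means of Ptpn2 was HFD VAT, lean LN, lean VAT and HFD LN, and lean LN and lean VAT, the neighbours that were tested, were not called different.

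Cblb encodes a ubiquitin ligase that restrains signalling in the absence of costimulation, and Ubash3a encodes Sts-2, which binds ubiquitinated signalling proteins. Cblb was at 28.7, 31.2, 95.6 and 114.0 CPM in HFD LN and at 227.0, 219.3, 201.4 and 94.3 CPM in HFD VAT. HFD VAT replicate 4 lay inside the LN range and the other 3 above it. The means were 67.38 ± 43.88 and 185.5 ± 61.74 CPM (SD, n = 4), and the log2 difference was 1.46 ± 0.45 (SE; 2.75-fold higher in VAT; edgeR adjusted p = 0.0890). DESeq2 gave an adjusted p of 0.0124, and without the 3 VAT libraries the difference was 1.21 ± 0.57 (edgeR adjusted p = 0.314). In lean mice Cblb was at 63.3, 61.9, 66.2 and 104.6 CPM in LN and at 125.4, 187.2, 155.7 and 105.9 CPM in VAT. The lean groups did not overlap, with 104.6 CPM in LN replicate 4 just under 105.9 CPM in VAT replicate 4, and the difference was 0.96 ± 0.44 (1.94-fold higher; edgeR adjusted p = 0.360), and 0.98 ± 0.51 without the 3 VAT libraries (adjusted p = 0.397).

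Ubash3a had the narrowest spread of the 10 in HFD VAT and in lean LN, with coefficients of variation of 5.34% and 6.19%. It was at 219.5, 214.9, 235.6 and 203.0 CPM in lean LN and at 82.5, 166.0, 186.4 and 152.3 CPM in lean VAT, with no overlap. That difference was -0.57 ± 0.23 on the log2 scale (1.49-fold lower in VAT; edgeR adjusted p = 0.254), and -0.41 ± 0.17 without the 3 VAT libraries (adjusted p = 0.296). On HFD it was at 169.8, 238.0, 168.2 and 145.9 CPM in LN and at 219.7, 208.5, 211.8 and 193.2 CPM in VAT. HFD LN replicate 2 was above all HFD VAT libraries and the other LN libraries were below them, a difference of 0.21 ± 0.22 (adjusted p = 0.756), and 0.14 ± 0.19 without the 3 VAT libraries (adjusted p = 0.769).

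**Figure D2:**
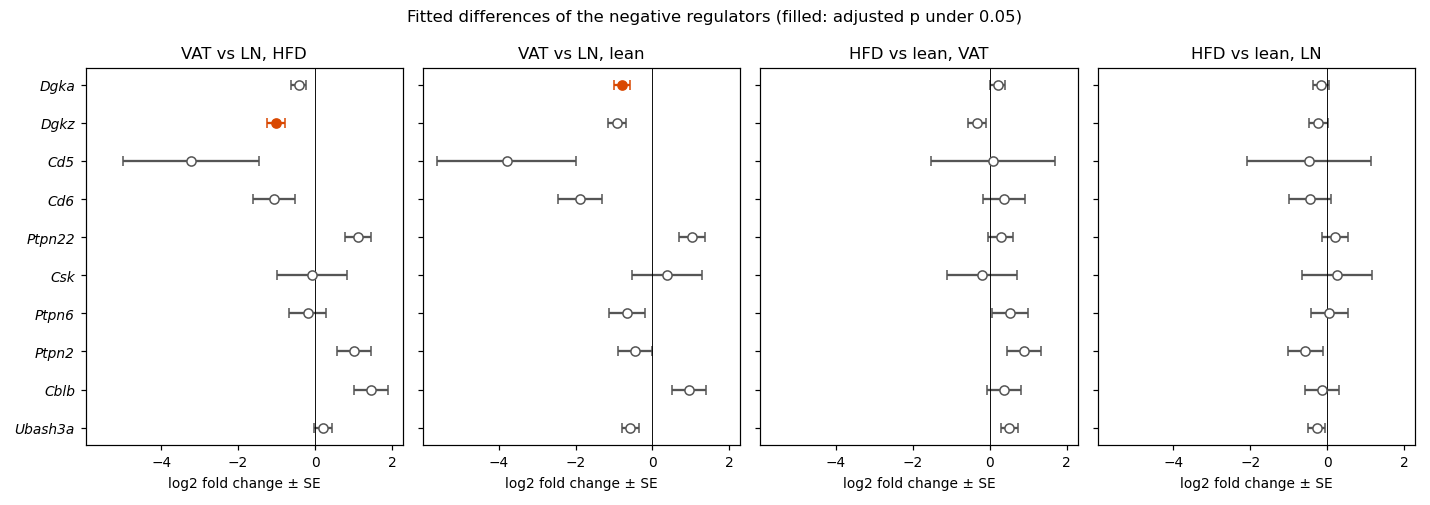
Fitted log2 differences of the 10 genes with SE (edgeR, 4 libraries a group), VAT minus LN on HFD and in lean mice, and HFD minus lean in VAT and in LN. Filled points passed an adjusted p of 0.05, which were Dgkz between tissues on HFD and Dgka between tissues in lean mice.

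Diet was compared within each tissue. Between HFD and lean VAT, 0 of the 10 were called, where 0.0574% of all genes were (9 of 15675; 0.00638% higher, 0.051% lower), and 1, Ubash3a, had an unadjusted p under 0.05, where 8.08% of all genes had. DESeq2 and limma voom also called 0 of the 10, where they called 4.91% and 0.204% of all genes. Ubash3a was at 208.3 ± 11.11 CPM in HFD VAT and 146.8 ± 45.1 CPM in lean VAT (SD, n = 4), with all HFD libraries above all lean ones. It was the only one of the 10 whose libraries did not overlap (1 of 10, where 3.22% of all genes did not overlap, 1.12% higher and 2.1% lower). The log2 difference was 0.51 ± 0.23 (SE; 1.42-fold higher on HFD; edgeR adjusted p = 0.591), and 0.27 ± 0.20 without the 3 VAT libraries (adjusted p = 0.836). Ptpn2 was at 170 CPM on average in HFD VAT and 91.51 in lean VAT, a difference of 0.89 ± 0.45 (1.86-fold; adjusted p = 0.654), with overlap, and 0.50 ± 0.45 without the 3 VAT libraries (adjusted p = 0.916). The other differences of diet in VAT lay between -0.33 (Dgkz) and 0.52 (Ptpn6). The median of the 10 was 0.32 on the log2 scale beside -0.10 for all genes.

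Between HFD and lean LN, 0 of the 10 were called, where 0% of all genes were, and 0 of the 10 had an unadjusted p under 0.05, where 3.37% of all genes had. DESeq2 and limma voom called 0 of the 10 as well, where they called 1.51% and 0.0191% of all genes. The log2 differences, HFD minus lean, ran from -0.57 ± 0.44 (Ptpn2) to 0.25 ± 0.91 (Csk), and the libraries overlapped for all 10, where 2.26% of all genes did not overlap (1.07% higher, 1.19% lower). The diet effect in VAT minus that in LN was also tested. It was called for 0 of the 10, where 0.0191% of all genes were (3 of 15675), and DESeq2 and limma voom called 0, where they called 4.05% and 0.0383% of all genes. At an unadjusted p under 0.05 it was higher for 2 of the 10, Ptpn2 (1.46 ± 0.63 on the log2 scale, edgeR adjusted p = 0.756) and Ubash3a (0.78 ± 0.32, adjusted p = 0.734), where 6.16% of all genes had such a p. These were 1.07 ± 0.57 and 0.54 ± 0.25 without the 3 VAT libraries (edgeR adjusted p = 0.715 and 0.676). For both genes the mean was lower on HFD than on the lean diet in LN and higher in VAT.

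Members of like role were also set against each other within each library, where the scaling between libraries cancels. A ratio of counts between genes is not per length, so only its change between groups is read. With 5 pairs and 4 comparisons, 20 exact two-sided permutation tests were made, whose smallest possible p with 4 libraries against 4 is 0.0286. 0 of 20 passed after adjustment, 2 had the smallest p, and both of these were in lean mice between tissues. After adjustment over 20 tests, a ratio at the smallest p can pass only if most of the others reach it too. The lack of a pass is therefore not read as a lack of change. The ratio of Cblb to Ubash3a counts was 1.52, 1.13, 0.835 and 0.696 in lean VAT replicates 1 to 4, and 0.288, 0.288, 0.281 and 0.515 in lean LN. All VAT libraries lay above all LN libraries, and the mean ratio was 3.02-fold higher in VAT (exact permutation p = 0.0286, adjusted 0.286). On the log2 scale this difference was 1.59, and 1.39 without the 3 VAT libraries. On HFD the ratio was 1.03, 1.05, 0.951 and 0.488 in VAT and 0.169, 0.131, 0.568 and 0.782 in LN, 2.68-fold higher with overlap (exact permutation p = 0.0857, adjusted 0.571). The ratio of Cd5 to Cd6 was 9.50e-05, 0.0806, 0.0955 and 0.207 in lean VAT and 0.393, 0.445, 0.349 and 0.251 in lean LN, again with no overlap (exact permutation p = 0.0286, adjusted 0.286). Its log2 difference was -4.16, and -1.59 without lean VAT replicate 1, the lean library that stood apart and had 0 counts of Cd5. On HFD it reached 1.98 in VAT replicate 3, the library in which Cd6 was lowest, and the groups overlapped. The ratio of Dgka to Dgkz was 1.51-fold higher in VAT on HFD (exact permutation p = 0.200) and 1.06-fold higher in lean mice (p = 0.800), with overlap in both. On HFD it was 11.4, 23.2, 8.19 and 8.29 in VAT replicates 1 to 4 and 8.47, 8.10, 8.33 and 6.11 in LN. Its HFD log2 difference of 0.59 ranged from 0.26 to 0.76 when 1 library was left out.

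The other genes of the pathway were taken from 2 lists. Of 30 other brakes on the receptor, 27 were tested. On HFD 1 rose in VAT, Sla, an adaptor that targets the receptor for degradation, and 1 fell, Peli1, a ubiquitin ligase. Sla was at 566.5 ± 144.9 CPM in HFD VAT and 177.4 ± 72.22 CPM in HFD LN (SD, n = 4; log2 difference 1.68 ± 0.37; 3.19-fold; edgeR adjusted p = 0.0186). Peli1 was at 226.9 ± 33.12 and 404.8 ± 57.15 CPM (log2 difference -0.83 ± 0.22; 1.78-fold lower; adjusted p = 0.0426). This call of Peli1 held in 8 of 25 alternatives and, with 1 library left out, only without lean LN replicate 2 or lean VAT replicate 1. That of Sla held in 21 of 25 and was lost without HFD LN replicate 2 (edgeR adjusted p = 0.0586), HFD LN replicate 4 (0.0702) or HFD VAT replicate 1 (0.0512). In lean mice 2 rose, Sla (3.46-fold, adjusted p = 0.0150) and Inpp5d (3.43-fold, adjusted p = 0.00307), which encodes the lipid phosphatase SHIP1, and 1 fell, Peli1 (2.32-fold lower, adjusted p = 0.00521). In lean mice Sla was called in 20 of 25 alternatives, Peli1 in 24 and Inpp5d in 25. Sla was lost there without lean LN replicates 1, 2 or 4 or lean VAT replicate 3 (edgeR adjusted p = 0.0503 to 0.0668). Of all genes 2.68% rose and 1.88% fell on HFD, and 2.12% and 0.919% in lean mice. The medians of this list were 0.32 on HFD and 0.01 in lean mice on the log2 scale, beside -0.10 and -0.003 for all genes, and 0 of 27 were called between diets in either tissue.

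Of 20 genes of the proximal signalling chain, all tested, 0 rose and 1 fell in VAT on HFD, and 0 rose and 3 fell in lean mice, where 1.88% and 0.919% of all genes fell. Lat, the adaptor that gathers the enzymes downstream of Zap70, was at 290.8 ± 70.35 CPM in HFD VAT and 660.9 ± 64.42 in HFD LN (SD, n = 4; log2 difference -1.18 ± 0.16; 2.27-fold lower; edgeR adjusted p = 0.000410). In lean mice it was at 365.7 ± 44.23 and 665.4 ± 19.19 CPM (1.82-fold lower; adjusted p = 0.00611). Lat was called in all 25 alternatives in both comparisons. The other genes that fell in lean VAT were Prkcq, the protein kinase C theta activated by diacylglycerol (2.02-fold lower; adjusted p = 0.00521), and Cd247, the zeta chain of the receptor (1.81-fold lower; adjusted p = 0.0187). Prkcq was called in 25 of 25 alternatives and Cd247 in 18. Cd247 was lost without lean LN replicates 1, 3 or 4 or lean VAT replicates 3 or 4 (edgeR adjusted p = 0.0505 to 0.0639). The medians of this list were -0.17 on HFD and -0.05 in lean mice, beside -0.10 and -0.003 for all genes, and 0 of 20 were called between diets in either tissue.

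Across the settings tried, the direction of the tissue difference of Dgka, Dgkz, Cd5, Cd6, Ptpn22, Cblb, Ubash3a and Ptpn2 was the same in all 25 alternatives on each diet. Of these alternatives, 16 left out 1 library each, also libraries of the diet not compared, so they overlap and are not independent checks. The adjusted p of several of these genes moved across the threshold. Dgkz was called in 19 of 25 alternatives on HFD and in 6 of 25 in lean mice, Ptpn22 in 6 and 3, Cd6 in 0 and 5, Dgka in 0 and 6, and Cd5 in 1 and 1, the latter being limma voom. Cblb was called in 1 on HFD, by DESeq2, and in 0 in lean mice. Ptpn2, Ptpn6, Ubash3a and Csk were called in 0 alternatives on either diet.

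**Figure D3:**
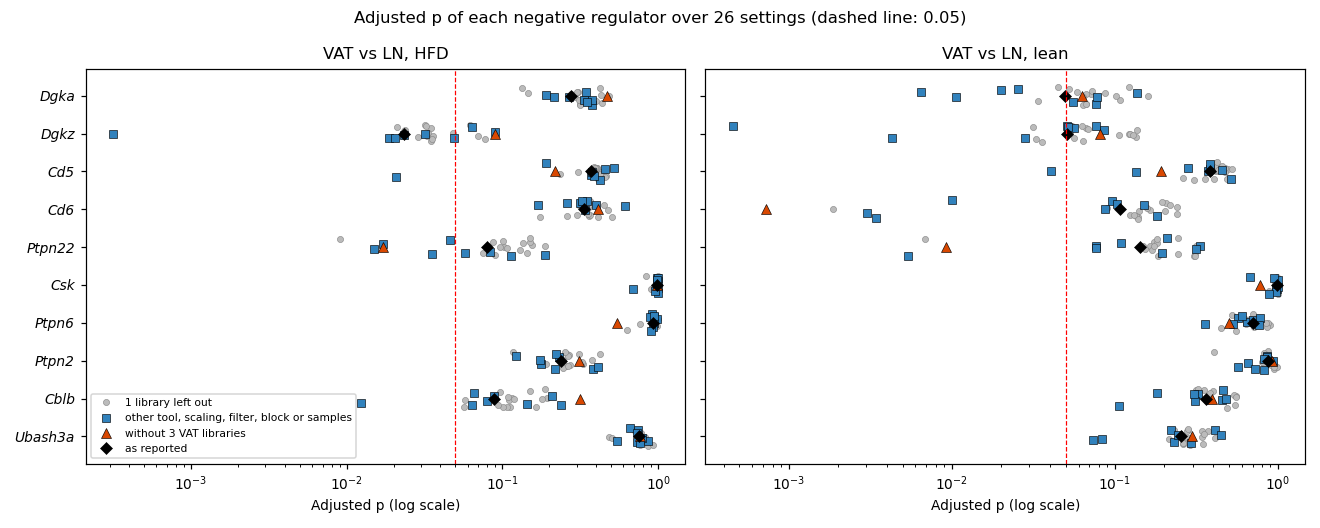
Adjusted p (log axis) of each gene for VAT against LN on HFD and in lean mice, as reported (diamond) and under the alternatives: 1 library left out (grey points), another tool, scaling, filter, block or choice of samples (squares), and without the 3 VAT libraries that stood apart (triangle). The dashed line is the threshold of 0.05. The points of Dgkz on HFD lie on both sides of it, with 19 of 25 alternatives below, and those of Dgka in lean mice with 6 of 25 below.

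For each of the 10 genes, the tested genes with the most similar pattern over the 16 libraries were found by the Euclidean distance between log2(CPM + 1) profiles centred on their mean. The search covered 9011 named genes with a mean of at least 5 CPM. Unnamed gene models, T cell receptor and immunoglobulin segments, mitochondrially encoded genes and names marked as pseudogenes or related sequences were left out. The distances are descriptions with no test, and all profiles share the same libraries and depths. The nearest to Dgka was Ccnl2 (distance 0.789, where the median distance of a gene to Dgka was 5.38), followed by Arhgap45 (0.946). The nearest to Ubash3a were Hnrnpk (0.928) and Rbms1 (0.937), and to Dgkz Vsir (1.13) and Srsf5 (1.15). Vsir, the inhibitory receptor VISTA, averaged 537.8 CPM in HFD LN, 264.5 in HFD VAT, 510.9 in lean LN and 261.6 in lean VAT. Ptpn22 lay nearest to Stk17b and Ikzf3 (1.38 each), Ptpn2 to Eif2s1 (1.62) and Ptpn6 to Dpf2 (1.80). Cblb lay nearest to Mbd2 (2.03), Csk to Zfp687 (2.22) and Cd6 to Rmnd5a (2.27). Cd5 had the most distant nearest genes, Stx1a (3.22) and Itgae (3.29). Itgae, which encodes an integrin chain, averaged 316.8 CPM in HFD LN, 14.74 in HFD VAT, 281.3 in lean LN and 15.75 in lean VAT. Among the 10 themselves the closest pairs were Dgka with Ubash3a (1.48) and Dgka with Dgkz (1.93).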

How the data were processed

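The deposited table holds whole-number counts per gene, not normalised, in 54456 genes and 16 libraries. The submitters' processing notes name kallisto 0.42.4, DESeq2 and GRCh38. GRCh38 is a build of human, the gene names are those of mouse. How the authors' estimates became whole counts is not given in the sources used here. The labels name more than 1 kit and more than 1 sequencer, and the growth protocol describes other cells, so the chemistry is not known.

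Groups came from the sample titles. Genes passing edgeR's filterByExpr (15675) were tested with edgeR 4.0.16 in R 4.3.3 (TMM scaling, robust quasi-likelihood F-test fitted on all 4 groups, Benjamini-Hochberg over all genes tested, threshold 0.05). The common dispersion was 1.521. Fold changes are on edgeR's fitted log2 scale. The titles call the libraries biological replicates, but no label says that those of a group came from separate animals. How much of the spread behind the p-values is technical is therefore not known. No pair of libraries of a group was identical or within counting noise (chi-square over degrees of freedom 266 to 992 in 24 pairs), so none were merged as 1 library deposited more than once. Ratios of counts (each + 0.5) were compared by exact permutation over libraries in Python 3.11.15 with SciPy 1.17.1.

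All 10 genes are named in every comparison, and from each list up to 3 called genes per direction with at least 5 CPM. Alternatives were RLE and upper quartile scaling, no filter or at least 5 CPM in 4 libraries, DESeq2 1.42.0, voom of limma 3.58.1 with quality weights, only the groups compared, the replicate number as a block, leaving out each library, leaving out the 3 VAT libraries with most missing genes, and 5 counts added in ratios. The procedure was tested on simulated counts. The genes, lists and alternatives were chosen with earlier results of these data known. Coordinates are of GRCm38.p6, not of the table.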

Additional observations from a re-analysis of the deposited data

Results flagged for a closer look

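Of 60 sets of 4 libraries examined (40 of CPM and 20 of log2 ratios of counts), 7 had a library far from the others of its group. For independent sets of normally distributed values, chance alone marks about 1 in 20. The sets here share genes and libraries and their distribution was not checked, so the 7 cannot be read against that rate. Cblb was at 104.6 CPM in lean LN replicate 4, against 61.9 to 66.22 in the other lean LN libraries, and the log2 ratio of Cblb to Ubash3a in that library was -0.957, against -1.83 to -1.79. The same ratio in HFD VAT replicate 4 was -1.03, against -0.07 to 0.07 in the other HFD VAT libraries. Dgka was at 2005 CPM in HFD VAT replicate 2, against 1279 to 1359. The log2 ratio of Dgka to Dgkz in HFD LN replicate 4 was 2.61, against 3.02 to 3.08. In lean VAT replicate 1, where Cd5 had 0 counts, the log2 ratio of Cd5 to Cd6 (0.5 added to each count) was -13.4, against -3.63 to -2.27, and that of Ptpn6 to Ptpn2 was 1.98, against 0.72 to 0.91.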

How the results depend on the processing

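The number of the 10 genes called between tissues moved with the tool. On HFD it was 1, against 2 with a filter of 5 CPM in 4 libraries, 3 with DESeq2 and 2 with voom (Cd5 and Ptpn22, not Dgkz), and 0 to 2 when 1 library was left out. Without the 3 VAT libraries it was again 1, Ptpn22 in place of Dgkz. In lean mice it was 1, against 0 with no filter, 3 with DESeq2, 5 with voom, 2 without the 3 VAT libraries and 0 to 2 when 1 library was left out. Counts for diet and for the difference between diet effects were 0 in every setting. The ratio of Ptpn6 to Ptpn2, HFD minus lean VAT, was -0.84 (log2) and 0.53 without the 3 VAT libraries.

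Over all genes the counts moved too. On HFD 714 of 15675 were called between tissues, against 441 of 33950 with no filter, 673 of 10835 with the 5 CPM filter and 2578 of 15675 with DESeq2. The count was 1010 of 15675 with voom and 668 of 18044 without the 3 VAT libraries. It was 483 to 886 of 16503 to 16646 genes when 1 library was left out. In lean mice 476 of 15675 were, against 326 of 33950 with no filter, 1569 of 15675 with DESeq2 and 1373 of 15675 with voom. The lean count was 563 of 18044 without the 3 VAT libraries, and 325 to 492 when 1 library was left out. For diet in VAT 9 were, against 769 with DESeq2, 32 with voom, 2 with no filter, 0 with only the groups compared, 62 without the 3 VAT libraries and 3 to 40 when 1 library was left out (40 without HFD VAT replicate 4, 23 without lean VAT replicate 1). For diet in LN 0 were, against 236 with DESeq2, 3 with voom and 0 to 1 with 1 library left out. For the difference between diet effects 3 were, against 635 with DESeq2, 6 with voom, 1 with no filter, a filter of 5 CPM or upper quartile scaling, 46 without the 3 VAT libraries and 0 to 24 with 1 library left out (24 without HFD VAT replicate 4, 17 without lean VAT replicate 1). The causes were not tested.

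Directions of uncalled differences turned as follows, in log2. Without the 3 VAT libraries, the HFD tissue difference was 0.46 for Ptpn6 and 0.085 for Csk, the diet difference in VAT was -0.75 for Cd5, and the difference between diet effects was -0.27 for Cd5 and -0.045 for Ptpn22. With voom, Cd5 was -4.05 for diet in VAT and -3.61 for the difference between diet effects, and Ptpn22 was -0.17 for the latter. The difference between diet effects of Dgkz was 0.006 with RLE scaling and with DESeq2. Leaving out 1 library moved the HFD tissue difference from -0.56 to 0.11 for Ptpn6 and from -0.48 to 0.34 for Csk, the diet difference in VAT from -0.94 to 0.62 for Cd5, -0.12 to 0.74 for Cd6 and -0.60 to 0.21 for Csk, and that in LN from -0.51 to 0.11 for Cblb, -0.15 to 0.22 for Ptpn6 and -0.068 to 0.53 for Csk. The same moved the difference between diet effects from -0.46 to 1.10 for Cd5, -0.19 to 0.28 for Ptpn22 and -0.22 to 0.12 for Dgkz.

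The labels do not say whether a shared replicate number means a shared animal. Deviations of libraries with the same number correlated by -0.088 to 0.042 over 24 pairs. Those of libraries with other numbers correlated by -0.066 to 0.096. Of 16 libraries, 4 correlated best with their own number. This check cannot exclude pairing. The 24 pairs include pairs across diets, which cannot share an animal, and the spread between libraries was wide. With the replicate block, 1 of the 10 genes was called between tissues on HFD and 0 in lean mice, where 505 and 337 of all 15675 genes were. With that block, 1 gene of all was called for diet in VAT and 0 for the difference between diet effects, and the diet difference of Cd5 in VAT was -0.24.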
